A study of Mus musculus with 19 samples.

Results

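The Dlk1-Dio3 cluster is an imprinted domain of mouse chromosome 12, and its 6 members here were the protein-coding genes Dlk1, Rtl1 and Dio3 and the noncoding RNAs Meg3, Rian and Mirg. They were chosen by name and were 6 of the 21685 genes in the deposited table. 4 of them, Dlk1, Dio3, Meg3 and Rian, passed a filter on low values and were tested. The filter asked for at least 10 units in at least 4 libraries, where a unit is 2 raised to the deposited log2 value, and Mirg and Rtl1 were below it in every library. A gene is said to be called where its limma p, adjusted over all tested genes, was under 0.05. The study measured mRNA in male C57BL/6 mouse embryonic stem cells that lacked Trim71, Lin28a, both or neither, and its title concerns the repression of let-7 miRNAs by TRIM71. Groups are written with Trim71 first. WT-WT cells (4 libraries) carried floxed, intact alleles of both genes (Trim71 fl/fl - Lin28a fl/fl), KO-WT cells (4 libraries) were Trim71-/- - Lin28a fl/fl, WT-KO cells (5 libraries) were Trim71 fl/fl - Lin28a-/-, and KO-KO cells (5 libraries) were Trim71-/- - Lin28a-/-. All cells grew in serum with leukaemia inhibitory factor and were sorted for the stem cell antigen SSEA-1 before harvest. Trim71 was deleted with 500 nM 4-hydroxytamoxifen for 2 days, followed by at least 7 days of culture, so that drug exposure and Trim71 loss cannot be told apart. The Lin28a-intact cells were the clones 1 and E3 and the Lin28a-null cells the clones 1-4 and C1, so that Lin28a state and clone cannot be told apart either. A further KO-WT column held nothing but the average of its group and was left out, which left 18 libraries.

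In the mouse the 3 protein-coding genes of the domain are expressed mainly from the paternal chromosome and the noncoding RNAs from the maternal one. Dlk1 is a membrane protein related to the Notch ligands, Rtl1 is a retrotransposon-derived protein needed in the placenta, and Dio3 is the deiodinase that inactivates thyroid hormone. Meg3 is a long noncoding RNA that starts beside a differentially methylated region, Rian hosts small nucleolar RNAs, and Mirg hosts a large miRNA cluster. The noncoding RNAs are thought to come largely from 1 long transcription unit that begins at the Meg3 promoter. In mouse stem cells the maternal RNAs can be silenced when that region gains methylation, a state known to limit developmental potential. LIN28A is an RNA-binding protein that blocks let-7 processing, and TRIM71 is an RNA-binding repressor that is itself a let-7 target.

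The promoters of Meg3, Dlk1 and Dio3 are shown because Meg3 and Dlk1 lie at the 2 sides of the imprinting control region and were lower in part of the comparisons, and Dio3 is the only tested member that rose in any of them. Each line gives the 250 bases before a RefSeq start site on the plus strand of GRCm38.p6, with matches to a cAMP response element (TGACGTCA), a TATA box (TATAAA) or a CCAAT box (CCAAT) on either strand in capitals. The lines cover chr12:109540746-109540995, chr12:109452573-109452822 and chr12:110278980-110279229.
Meg3 promoter: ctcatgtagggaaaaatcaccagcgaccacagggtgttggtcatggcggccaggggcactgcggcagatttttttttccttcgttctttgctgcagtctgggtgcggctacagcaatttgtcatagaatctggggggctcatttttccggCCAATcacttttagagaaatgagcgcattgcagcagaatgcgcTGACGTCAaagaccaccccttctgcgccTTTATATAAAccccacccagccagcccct
Dlk1 promoter: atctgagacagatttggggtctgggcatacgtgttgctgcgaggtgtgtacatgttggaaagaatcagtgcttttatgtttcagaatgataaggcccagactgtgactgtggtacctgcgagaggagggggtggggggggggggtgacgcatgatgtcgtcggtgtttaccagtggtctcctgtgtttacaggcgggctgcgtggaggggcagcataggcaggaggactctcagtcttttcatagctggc
Dio3 promoter: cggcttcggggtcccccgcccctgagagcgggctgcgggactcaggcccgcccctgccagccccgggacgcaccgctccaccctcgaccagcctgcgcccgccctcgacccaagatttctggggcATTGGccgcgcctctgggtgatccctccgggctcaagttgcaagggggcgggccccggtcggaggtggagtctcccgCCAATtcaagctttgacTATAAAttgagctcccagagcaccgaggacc
RefSeq gives Meg3 a pair of start sites, and the window shown is that of the upstream one. This Meg3 window held a response element 57 bases before the start, overlapping TATA matches on opposite strands 29 and 25 bases before it, and a CCAAT match at 100 bases. Among 32851 RefSeq promoter windows of the same 300 bases (50 after the start included), 1.79% held this response element, 13.6% a TATA match and 37.4% a CCAAT match. The Meg3 window also held 1 TGCCGC, the letters that the imprint-protecting zinc finger protein ZFP57 binds when methylated, which 11.6% of windows shared. The downstream Meg3 window (chr12:109545148-109545397) and the Dlk1 window held none of these letters. The Dio3 window had a TATA match 31 bases before the start, CCAAT matches at 125 and 48 bases and 4 GC boxes (GGGCGG), a motif in 35.7% of windows. Meg3 had 13 CpG in the window shown and 1 in the downstream one, Dlk1 9 and Dio3 25, against a median of 7. RefSeq promoter windows were found for 5 of the 6 members.

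The domain is also one of the largest miRNA clusters of the mouse, with 58 hairpin entries and 114 mature miRNA entries between Dlk1 and Dio3 in the RefSeq table. Among the mature entries, miR-3070-5p is given for both Mir3070a and Mir3070b. Of the hairpins, 1 lay within Meg3, 3 within Rian and 10 within Mirg. The other 44 lay within none of these 3 RNAs as RefSeq places them, and 13 of those were opposite Rtl1. The sequences below are examples from along the domain, shown for where they lie and for their seeds, since the study concerns let-7. Capitals mark the seed, bases 2 to 8, and a let-7 is added for comparison.
miR-770-5p: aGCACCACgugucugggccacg
miR-370-3p: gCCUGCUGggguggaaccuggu
miR-127-3p: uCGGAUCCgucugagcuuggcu
miR-434-3p: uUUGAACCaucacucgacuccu
miR-379-3p: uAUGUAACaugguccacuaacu
miR-411-3p: uAUGUAACacgguccacuaacc
miR-410-3p: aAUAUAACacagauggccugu
let-7a-5p: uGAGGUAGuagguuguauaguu
miR-770-5p (chr12:109563710-109563731) lies within Meg3, miR-370-3p (chr12:109618305-109618326) within Rian and miR-410-3p (chr12:109743764-109743784) within Mirg. miR-127-3p (chr12:109592888-109592909) and miR-434-3p (chr12:109594565-109594586) lie opposite Rtl1. miR-379-3p (chr12:109709102-109709123) and miR-411-3p (chr12:109710225-109710246) share the seed AUGUAAC. The 114 mature entries carried 104 different seeds. None of them had the seed of let-7a-5p (chr13:48538239-48538260) or any other of the 10 let-7 seeds in the table, both arms counted. The libraries were made from mRNA, and the levels of these miRNAs were not analysed here.

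Each targeted gene was lower in the groups labelled as lacking it. Trim71 averaged 10.21 ± 0.121 (SD, n = 4) in WT-WT and 8.89 ± 0.138 (n = 4) in KO-WT, and 10.65 ± 0.203 (n = 5) in WT-KO and 9.28 ± 0.179 (n = 5) in KO-KO, all on the deposited log2 scale. Lin28a averaged 10.13 ± 0.158 and 9.84 ± 0.109 in the Lin28a-intact groups and 8.47 ± 0.0881 and 8.28 ± 0.0621 in the Lin28a-null groups. After Trim71 loss with Lin28a intact, Lin28a was called lower as well, where 6.43% of tested genes were called lower. It was not called after Trim71 loss in Lin28a-null cells. Trim71 was called higher after Lin28a loss in both Trim71 states, where 42.4% and 42.8% of tested genes were called. The part of the lower Lin28a in the members' Trim71 differences was not tested. Summed units of the trophectoderm marker list (Krt8, Krt18, Hand1 and others, 9 of 9 with a row) ran from 4362 to 5791 in WT-WT and from 4344 to 5354 in KO-WT, but from 1113 to 1346 in WT-KO and from 986 to 1233 in KO-KO. Primitive endoderm markers (9 of 9) fell from 2709-3394 in WT-WT to 1148-1532 in WT-KO, with 3441-4564 in KO-WT and 1620-2119 in KO-KO. Fibroblast markers (4 of 12 with a row) summed to 100-125 units in WT-WT, 94.2-105 in KO-WT, 70.0-76.7 in WT-KO and 69.5-85.5 in KO-KO. Stem cell markers (10 of 10) stood at 39902-41847 in WT-WT, 42071-45105 in KO-WT, 49448-54501 in WT-KO and 51795-54662 in KO-KO. Lin28a loss thus came with lower trophectoderm and primitive endoderm marker sums and higher stem cell marker sums beside each of its results below. With Trim71 intact, 5 of 7 tested trophectoderm and 7 of 7 primitive endoderm markers were called lower, and 0 of either list higher. Of 9 tested stem cell markers 7 were called higher and 0 lower, where 42.4% of all tested genes were called. The trophectoderm markers Eomes (5.30 to 5.43) and Tfap2c (9.69 to 9.82) had higher means in WT-KO than in WT-WT. Trim71 loss with Lin28a intact came with higher sums of primitive endoderm and stem cell markers, whose KO-WT libraries lay above all WT-WT libraries. Gene by gene, 1 of 7 tested primitive endoderm and 1 of 9 tested stem cell markers were called higher and 0 lower. In that comparison 11.2% of all tested genes were called. The stem cell markers Nanog, Sall4, Zfp42 and Fut4 had lower means in KO-WT than in WT-WT. The part of these cells in the members' levels was not tested, and in bulk samples fewer cells of a type and less RNA per cell cannot be told apart.

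**Figure D1:**
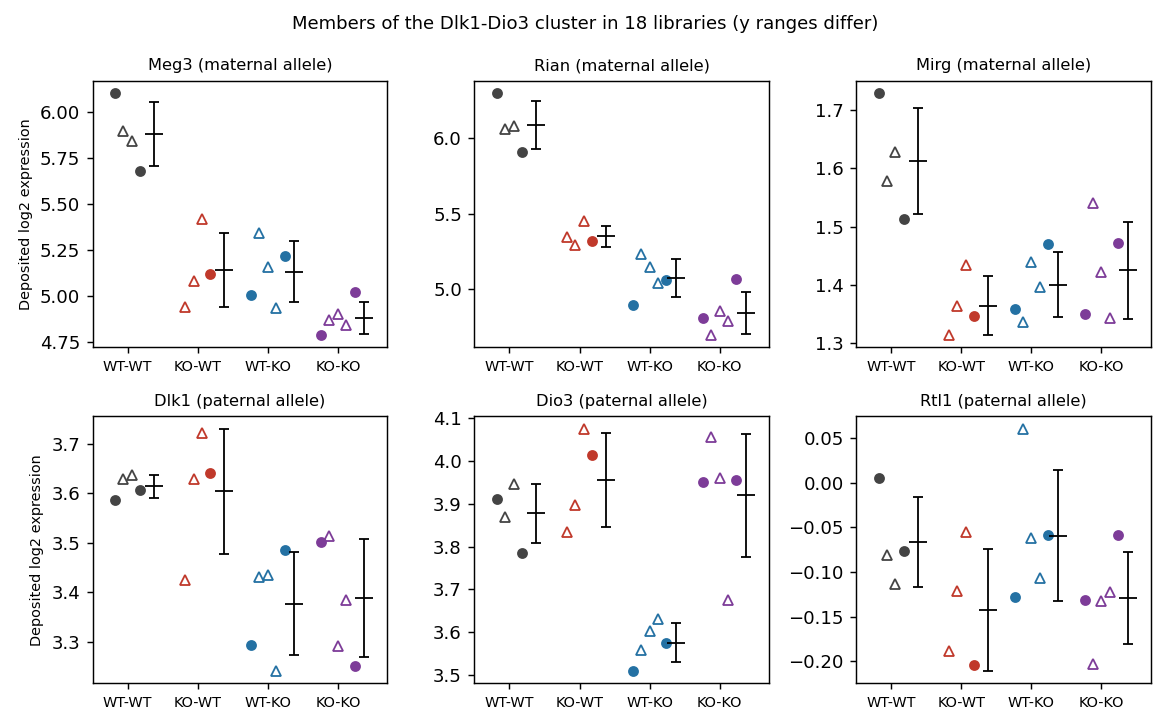
Deposited log2 expression (y axis, a separate range per panel) of the 6 members in the 18 libraries, by genotype (x axis). Circles are clones 1 and 1-4, triangles clones E3 and C1, and the bar to the right of each group is its mean ± SD (n = 4, 4, 5 and 5). The 4 WT-WT libraries lie above all others for Meg3 and Rian, and the 5 WT-KO libraries lie below all others for Dio3. The shares of tested genes with these patterns were not counted.

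Meg3 and Rian, the maternal noncoding RNAs at the head of the unit, were highest where both Trim71 and Lin28a were intact and were lower after loss of either gene. Meg3 stood at 6.10, 5.90, 5.84 and 5.68 in the 4 WT-WT libraries and at 4.94, 5.08, 5.42 and 5.12 in the 4 KO-WT libraries. In the Lin28a-null cells it read 5.01, 5.34, 5.16, 4.93 and 5.22 in WT-KO and 4.79, 4.87, 4.90, 4.84 and 5.02 in KO-KO. No library of another genotype reached the lowest WT-WT library, and WT-KO overlapped both KO-WT and KO-KO. The share of tested genes with all WT-WT libraries above all others, as Meg3 and Rian had, was not counted. Rian stood at 6.30, 6.07, 6.08 and 5.91 in WT-WT, at 5.35, 5.29, 5.45 and 5.32 in KO-WT, at 4.90, 5.23, 5.15, 5.04 and 5.06 in WT-KO, and at 4.81, 4.70, 4.86, 4.79 and 5.07 in KO-KO. The KO-WT libraries of Rian thus lay below all WT-WT libraries, as those of 15.3% of tested genes did, and above all WT-KO libraries. KO-WT was not tested against WT-KO, and the share of tested genes with that gap was not counted. The WT-KO and KO-KO libraries of Rian overlapped. Group means of Meg3 fell in the order WT-WT 5.88 ± 0.175, KO-WT 5.14 ± 0.201, WT-KO 5.13 ± 0.164 and KO-KO 4.88 ± 0.0869 (SD), in which KO-WT and WT-KO did not differ beyond their spread. Those of Rian fell in the same order, from 6.09 ± 0.160 through 5.35 ± 0.0692 and 5.08 ± 0.125 to 4.84 ± 0.139. Both RNAs were of middling level, with 47.0% and 47.5% of all genes at a lower mean.

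After Trim71 loss with Lin28a intact, both maternal RNAs were lower and ranked among the widest differences of all tested genes. Meg3 fell by 0.74 on the log2 scale (SE 0.124, limma adjusted p = 0.00266) and Rian by 0.74 (SE 0.107, limma adjusted p = 0.000811), to 0.60 times the WT-WT level for each. Of the 4 tested members 2 were called, both lower, where 11.2% of the 14988 tested genes were called and 6.43% were called lower. Only 28 tested genes had a larger absolute difference than Meg3 and 29 a larger one than Rian. Within the 3 days that held both genotypes, Meg3 was lower by between 0.42 and 0.82 and Rian by between 0.59 and 0.77. The KO-WT libraries lay below all WT-WT libraries for both RNAs, which held for 15.3% of tested genes. The paternal members did not pass the test, at -0.01 for Dlk1 (95% confidence interval -0.21 to 0.19, limma adjusted p = 0.957) and 0.08 for Dio3 (-0.12 to 0.27, limma adjusted p = 0.609).

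The Trim71 calls of Meg3 and Rian were lost in some fits on fewer libraries, and that of Rian also after a correction for GC content and transcript length. Fitted on WT-WT and KO-WT alone, with fewer libraries, Meg3 read -0.60 (limma adjusted p = 0.0848) and Rian -0.67 (limma adjusted p = 0.0537), and in that fit 30 of all tested genes (0.200%) were called. Rian, whose longest transcript is 35.8% GC, poorer than all but 0.62% of tested genes, moved to -0.44 (limma adjusted p = 0.0654) after each library was corrected for GC content and transcript length. Meg3 is 49.2% GC, near the median of 50.1%, and kept its call in that fit (-0.61, limma adjusted p = 0.0101).

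**Figure D2:**
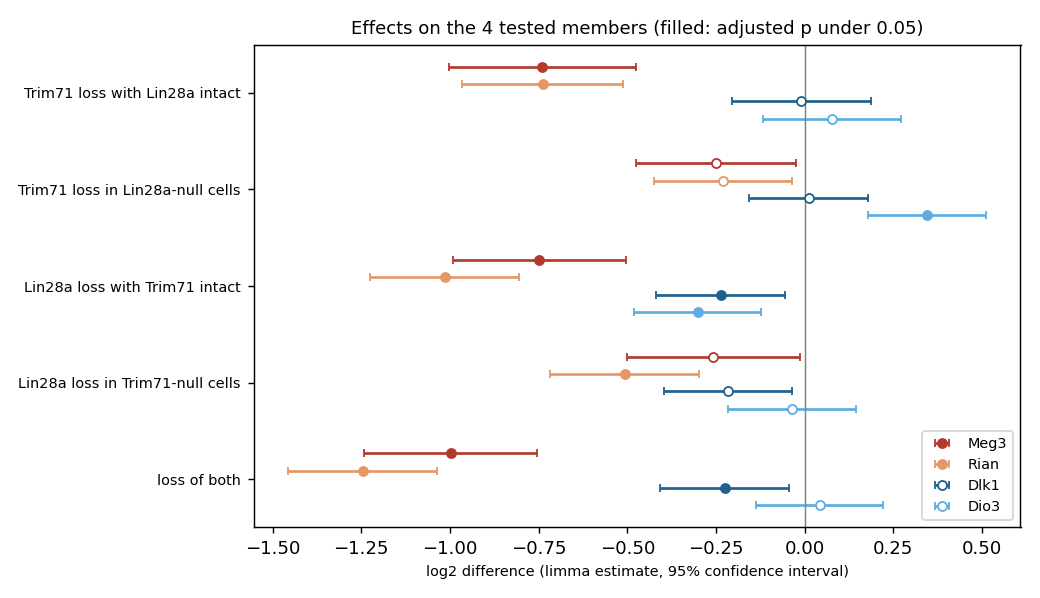
log2 differences of the 4 tested members (x axis) in 5 comparisons (y axis), as limma estimates with 95% confidence intervals; filled points have an adjusted p under 0.05. Meg3 and Rian are on the lower side in every comparison, and Dio3 is lower after Lin28a loss with Trim71 intact and higher after Trim71 loss in Lin28a-null cells.

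In Lin28a-null cells the maternal RNAs missed the threshold after Trim71 loss, although most days lay on the lower side. Meg3 read -0.25 (95% confidence interval -0.47 to -0.02, limma adjusted p = 0.17) and was lower in 5 of 5 days. Rian read -0.23 (-0.42 to -0.04, limma adjusted p = 0.139) and was lower in 4 of 5 days, at 0.01 in the other. The only member called was Dio3, which rose, in a comparison where 8.38% of tested genes were called and 4.26% were called higher. Its KO-KO libraries lay above all WT-KO libraries, as those of 6.05% of tested genes did. The difference between the Trim71 effects in Lin28a-null and Lin28a-intact cells was 0.49 for Meg3 (SE 0.164, unadjusted p = 0.00849, limma adjusted p = 0.238) and 0.51 for Rian (SE 0.141, unadjusted p = 0.00233, limma adjusted p = 0.196). 0 members passed this test, and 0.0200% of all tested genes did. 3 members (Meg3, Rian and Dio3) had an unadjusted limma p under 0.05, as did 15.1% of all tested genes. Over the 12 other settings the difference ran from 0.31 to 0.57 for Meg3 and from 0.21 to 0.75 for Rian, with limma adjusted p up to 0.763. Without the day term Meg3 and Rian were called for this difference, and 4.49% of all tested genes were. In simulated data on Trim71 loss with Lin28a intact, leaving out that term gave 36.0% false calls.

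Lin28a loss lowered all 4 tested members where Trim71 was intact. Rian fell by 1.02 (SE 0.0990, limma adjusted p = 8.37e-07), to 0.49 times the WT-WT level, and Meg3 by 0.75 (SE 0.115, limma adjusted p = 8.64e-05). Dio3 fell by 0.30 (SE 0.0848, limma adjusted p = 0.00921) and Dlk1 by 0.24 (SE 0.0857, limma adjusted p = 0.0351). Each was lower in WT-KO on all 4 shared days, and none of the 4 overlapped between the groups. In this comparison 42.4% of tested genes were called, with 22.0% called lower, and 20.7% had all WT-KO libraries below all WT-WT libraries. 193 tested genes had a larger absolute difference than Rian and 451 than Meg3, against 3377 for Dio3 and 4791 for Dlk1. The calls of Meg3 and Rian held in all 13 other settings and with any 1 library left out. That of Dlk1 did not, with limma adjusted p = 0.0639 and 0.0802 when the libraries were rescaled to a common 75th percentile or median, and between 0.0596 and 0.109 without any 1 of the WT-WT libraries or WT-KO replicates 1 or 4.

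In Trim71-null cells Lin28a loss lowered Rian and left the other members short of the threshold. Rian fell by 0.51 (SE 0.0990, limma adjusted p = 0.000675) and was lower on 4 of 4 days, by between 0.25 and 0.66. Its KO-KO libraries lay below all KO-WT libraries, as those of 20.8% of tested genes did. Meg3 read -0.26 (limma adjusted p = 0.0816), Dlk1 -0.22 (limma adjusted p = 0.0523) and Dio3 -0.04 (limma adjusted p = 0.763). Without KO-WT replicate 1, Meg3 (-0.35, limma adjusted p = 0.0331) and Dlk1 (-0.30, limma adjusted p = 0.0122) were called. In this comparison 42.8% of tested genes were called and 22.0% were called lower. Cells without both genes, set against WT-WT, had the lowest Rian and Meg3: Rian fell by 1.25 (SE 0.0990, limma adjusted p = 7.19e-08), to 0.42 times, and Meg3 by 1.00 (SE 0.115, limma adjusted p = 4.43e-06), to 0.50 times. Dlk1 fell by 0.23 (limma adjusted p = 0.0411), a call lost without any 1 of 8 libraries (all 4 of WT-WT, WT-KO replicate 2 and KO-KO replicates 3, 4 and 5, limma adjusted p = 0.0533 to 0.131) and kept in 8 of 12 other settings. It was lost with the 75th percentile or median scaling (limma adjusted p = 0.0753 and 0.103) and in either clone set alone (limma adjusted p = 0.222 and 0.257). Dio3 read 0.04 (limma adjusted p = 0.708), in a comparison where 45.6% of tested genes were called and 24.6% were called lower. Meg3, Rian and Dlk1 had all KO-KO libraries below all WT-WT libraries, which held for 23.6% of tested genes. These comparisons share groups and are not independent of each other.

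**Figure D3:**
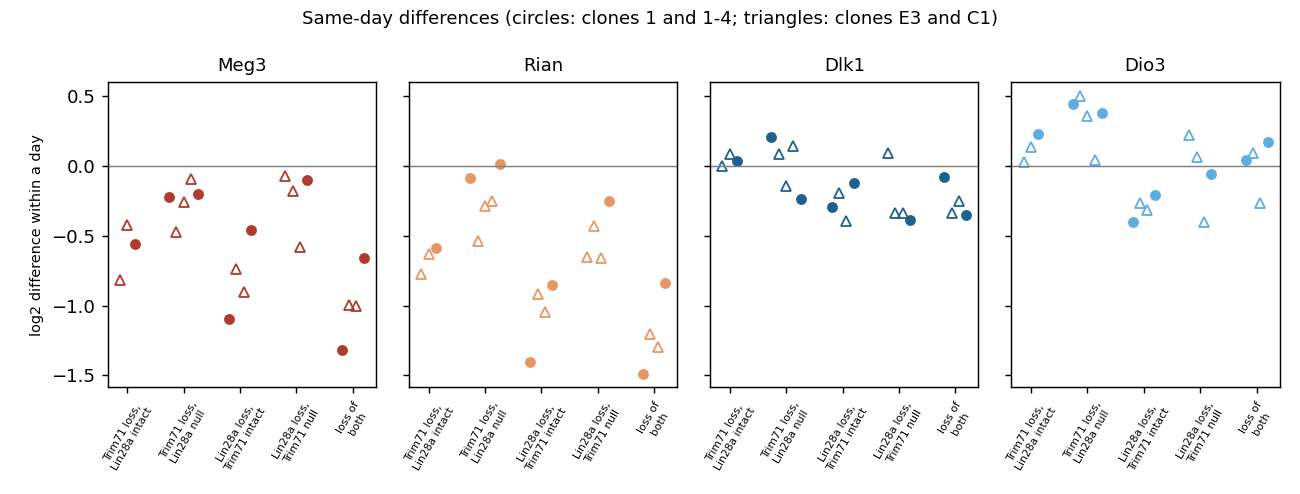
log2 differences within a day (y axis) for the 4 tested members in 5 comparisons (x axis), 1 point per day with both genotypes; filled circles are clones 1 and 1-4 and open triangles clones E3 and C1. All 4 days lie below 0 for all 4 members after Lin28a loss with Trim71 intact, and all 5 days lie above 0 for Dio3 after Trim71 loss in Lin28a-null cells.

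In the comparisons against WT-WT, Meg3 and Rian were lower in each of the 2 clone sets, which are 2 pairs of clones harvested on different days. After Lin28a loss with Trim71 intact, Meg3 read -0.78 in clones 1 and 1-4 and -0.72 in clones E3 and C1, and Rian -1.13 and -0.93, gaps of -0.06 (SE 0.258) and -0.19 (SE 0.204). After Trim71 loss with Lin28a intact, Meg3 read -0.78 and -0.72 and Rian -0.79 and -0.71, although clone 1 gave a single KO-WT library. The largest gap between the sets in a member was 0.32 for Rian after Trim71 loss in Lin28a-null cells (-0.04 in clones 1 and 1-4, -0.36 in clones E3 and C1, SE of the gap 0.192, limma adjusted p = 1.00). No member's gap passed the test in any of the 4 comparisons, nor did any of the 14988 tested genes in 3 of them, while 1 gene (0.00667%) did for Trim71 loss with Lin28a intact. At an unadjusted limma p under 0.05 the members gave 0 as well, where between 0.173% and 5.28% of all tested genes passed. The SE of a member's gap reached 0.300 (Meg3 after Trim71 loss with Lin28a intact). Gaps as wide as several of the effects could thus be missed, and the test does not show that the clone sets agree. In this joint fit of both sets, Trim71 loss with Lin28a intact gave a call of Rian in clones E3 and C1 (limma adjusted p = 0.0437) and none of Meg3 there (limma adjusted p = 0.0686) or of either RNA in clones 1 and 1-4 (limma adjusted p = 0.243 for Meg3 and 0.115 for Rian), with 75 and 56 of all tested genes called in the 2 sets. Fitted on the libraries of 1 clone set alone, neither RNA was called after Trim71 loss with Lin28a intact (limma adjusted p = 0.101 to 0.136 for Meg3 and 0.0691 to 0.0859 for Rian). Those fits called 0.0667% of all tested genes in clones E3 and C1 and 2.30% in clones 1 and 1-4.

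Mirg, the third maternal RNA, was weakly detected and was outside the main test. It stood at 1.73, 1.58, 1.63 and 1.51 in WT-WT and at 1.31, 1.36, 1.43 and 1.35 in KO-WT. Its KO-WT libraries lay below all WT-WT libraries, as those of 15.3% of tested genes did, though Mirg was not a tested gene. In the Lin28a-null cells it lay between 1.34 and 1.47 in WT-KO and between 1.34 and 1.54 in KO-KO. Fitted with no filter on low values, Mirg differed by -0.25 after Trim71 loss with Lin28a intact (limma adjusted p = 0.0295), by -0.21 after Lin28a loss with Trim71 intact (limma adjusted p = 0.00884) and by -0.19 after loss of both (limma adjusted p = 0.0171). It read 0.02 after Trim71 loss in Lin28a-null cells and 0.06 after Lin28a loss in Trim71-null cells (limma adjusted p = 0.862 and 0.433). The WT-WT mean of 1.61 was the highest of the 4, though the KO-KO and WT-WT libraries overlapped. In these fits with no filter 6.27%, 36.2% and 39.1% of all genes were called after Trim71 loss with Lin28a intact, Lin28a loss with Trim71 intact and loss of both. No library reached the filter of 10 units.

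Gm26906, which GENCODE M21 places opposite the 3′ end of Meg3 and which was added after its values were seen, was highest in WT-WT. Its means of 2.60 in KO-WT, 2.57 in WT-KO and 2.54 in KO-KO did not differ beyond their spread. It stood at 3.26, 3.16, 3.09 and 2.95 in WT-WT and at 2.38, 2.57, 2.84 and 2.62 in KO-WT. Its range was 2.40 to 2.76 in WT-KO and 2.49 to 2.60 in KO-KO. With no filter it differed by -0.51 after Trim71 loss (limma adjusted p = 0.0108) and by -0.55 after Lin28a loss (limma adjusted p = 0.000347), each with the other gene intact. After loss of both it read -0.57 (limma adjusted p = 0.000212). It read -0.03 after Trim71 loss in Lin28a-null cells and -0.07 after Lin28a loss in Trim71-null cells (limma adjusted p = 0.915 and 0.628). The TruSeq RNA v2 kit does not mark strand, so its reads and those of Meg3 cannot be told apart, and it is not independent of Meg3. Gm3379, the other such row between Dlk1 and Dio3, averaged 4.25 ± 0.0564 in WT-WT and 4.48 ± 0.0825 in KO-WT and was called only after Lin28a loss in Trim71-null cells (-0.30, limma adjusted p = 0.0189).

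**Figure D4:**
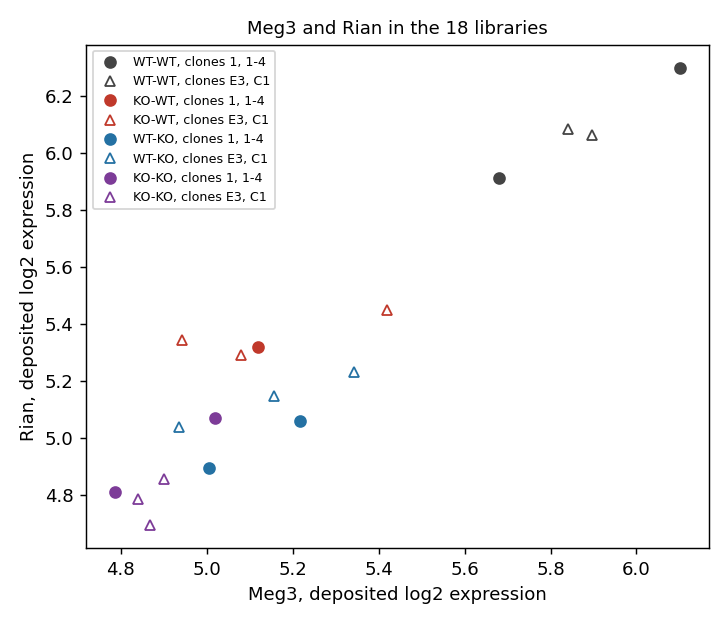
Rian against Meg3 (both axes deposited log2 expression) in the 18 libraries, coloured by genotype, with circles for clones 1 and 1-4 and triangles for clones E3 and C1. The 4 WT-WT libraries sit apart at the upper right, and the 4 KO-WT libraries lie above the Lin28a-null libraries in Rian. The shares of tested genes with such gaps were not counted.

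Across the 18 libraries Meg3 and Rian followed each other, with Pearson r = 0.952 over the values and 0.761 over the residuals after genotype and day. These are descriptions over libraries that share genotypes, days and a scaling. Meg3 followed the paternal members less, at r = 0.593 with Dlk1 and 0.109 with Dio3 over the values and at 0.382 and 0.398 over the residuals. Dlk1 and Dio3 gave r = 0.487 over the values and 0.338 over the residuals. The 5 tested genes outside the cluster most like Rian over the 18 values were Palld (r = 0.946), Cnn1 (0.946), Dnajc19 (0.944), Dnajb6 (0.939) and Fgfr2 (0.938). Over the residuals they were Acbd6 (0.920), Cd72 (0.910), Sapcd2 (0.900), Rpsa-ps12 (0.896) and Gm26578 (0.884), none of them on the first list. These 5 followed Rian more closely over the residuals than Meg3 did (0.761), and the number of tested genes that did so was not counted. For Dio3 the 5 most alike were 1700110K17Rik (0.944), Prkar2a (0.894), Abcd3 (0.890), Ermp1 (0.883) and Ano3 (0.882) over the values, and Paqr9 (0.928), Ccdc92b (0.890), Med17 (0.888), Hic1 (0.880) and Lig3 (0.878) over the residuals.

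Among the paternal members, Dio3 had a pattern of its own. It stood at 3.91, 3.87, 3.95 and 3.78 in WT-WT and at 3.83, 3.90, 4.08 and 4.01 in KO-WT. It read 3.51, 3.56, 3.60, 3.63 and 3.57 in WT-KO, below every other library (a pattern not counted over all tested genes), and 3.95, 4.06, 3.96, 3.68 and 3.95 in KO-KO. The means were 3.88 ± 0.0694, 3.96 ± 0.109, 3.58 ± 0.0458 and 3.92 ± 0.143 (SD), and the 3 groups other than WT-KO did not differ beyond their spread. In Lin28a-null cells, Trim71 loss raised Dio3 by 0.34 (SE 0.0785, limma adjusted p = 0.0131), 1.27-fold, in 5 of 5 days. The difference between its Trim71 effects in Lin28a-null and Lin28a-intact cells was 0.27 (unadjusted p = 0.0420, limma adjusted p = 0.321). The call was lost without KO-KO replicate 2, the highest KO-KO library (0.29, limma adjusted p = 0.0545). A level of 3.9 is close to the filter of 10 units, 3.32 on the log2 scale, and reads of the overlapping antisense transcript Dio3os could add to it, since strand was not marked.

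Dlk1 was lower in the Lin28a-null cells and had near equal means with and without Trim71. It stood at 3.59, 3.63, 3.64 and 3.61 in WT-WT and at 3.43, 3.63, 3.72 and 3.64 in KO-WT. In the Lin28a-null cells it read 3.29, 3.43, 3.43, 3.24 and 3.49 in WT-KO and 3.50, 3.51, 3.29, 3.38 and 3.25 in KO-KO. The Lin28a-null means of 3.38 ± 0.104 and 3.39 ± 0.119 lay below the Lin28a-intact means of 3.61 ± 0.0228 and 3.60 ± 0.126 (SD), while the means within a Lin28a state did not differ beyond their spread. KO-WT replicate 1 lay among the Lin28a-null libraries. Dlk1 reached the filter in 14 of 18 libraries.

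Rtl1 was near the bottom of the table in all 4 genotypes. Its values ran from -0.20 to 0.06 over the 18 libraries, and 0.240% of all genes had a lower mean. All 4 groups overlapped, and with no filter it was called in 0 comparisons (differences from -0.08 to 0.01, smallest limma adjusted p = 0.275, smallest unadjusted p = 0.104). Its reads cannot be told apart from those of the antisense miRNA precursors.

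The genes on either side of the domain were called in both directions. Over all tested genes, 11.2% were called after Trim71 loss with Lin28a intact, with a median difference of 0.00. Of 14 tested neighbours, 1 was higher and 1 lower in that comparison (median 0.05). Those were Begain (0.37, limma adjusted p = 0.00656), the nearest of the called neighbours on the Dlk1 side, and the heat shock chaperone Hsp90aa1 (-0.38, limma adjusted p = 0.0295), beyond Dio3. After Lin28a loss with Trim71 intact 3 were higher and 2 lower, with a median of 0.05, where 42.4% of all tested genes were called. The called neighbours with the widest differences there were the kinase gene Mok (0.54), Hsp90aa1 (-0.51) and the dynein heavy chain Dync1h1 (0.27).

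**Figure D5:**
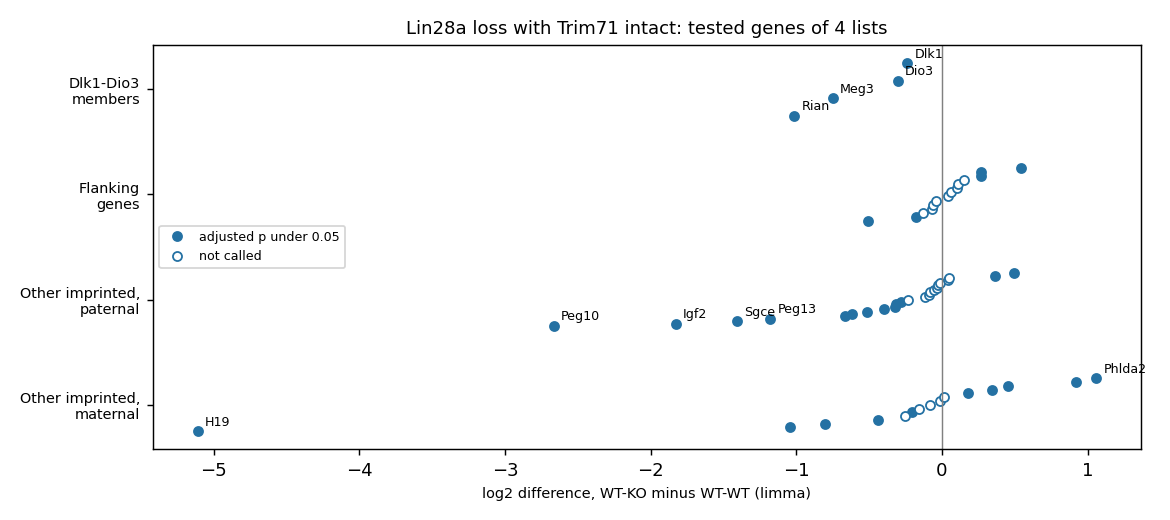
log2 differences after Lin28a loss with Trim71 intact (x axis) for the tested genes of 4 lists (y axis), 1 point per gene; filled points have a limma adjusted p under 0.05. All 4 members lie below 0, the flanking genes scatter around 0, and the other imprinted genes reach from H19 at -5.11 to Phlda2 at 1.06.

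Imprinted genes elsewhere in the genome were called in both directions as well. After Trim71 loss with Lin28a intact, 2 of 15 tested maternally expressed genes were higher and 1 lower (median 0.02), and 1 of 23 paternally expressed genes was higher and 2 lower (median -0.09). Over all tested genes 11.2% were called in that comparison. The maternal RNA H19, a regulator linked to growth, fell by 0.54 (SE 0.152, limma adjusted p = 0.0349), and the paternal genes Sfmbt2, a Polycomb-related gene, and Nnat, a membrane proteolipid, differed by -0.46 and 0.43 (limma adjusted p = 0.0120 and 0.00597). After Lin28a loss with Trim71 intact, 5 maternal genes were higher and 5 lower, and 2 paternal genes were higher and 11 lower. The median of the paternal list was -0.23, against -0.01 over all tested genes, of which 42.4% were called, 22.0% lower and 20.3% higher. H19 fell by 5.11, from 11.22 ± 0.228 to 6.11 ± 0.205 (SD), the retrotransposon-derived Peg10, a relative of Rtl1, by 2.66, and the growth factor Igf2 by 1.83. Sgce, the neighbour of Peg10, fell by 1.41, and Ascl2, a trophoblast transcription factor, fell by 1.04. Phlda2, which limits placental growth, rose by 1.06. Several of these genes are also abundant in extraembryonic cells, whose marker sums fell in the same comparison, but a link between them was not tested. Ascl2 is itself 1 of the 9 trophectoderm markers.

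Genes that protect or write imprints are background to the domain, since imprinted control regions are kept by them. After Trim71 loss with Lin28a intact, 2 of 24 were higher and 4 lower (median -0.08), where 11.2% of all tested genes were called. The chromatin remodeller Atrx differed by -0.66 (limma adjusted p = 0.0257), Smchd1 by -0.44 (limma adjusted p = 0.0362) and Zfp445, a zinc finger protein that protects imprints, by -0.43 (limma adjusted p = 0.0286). Whether these calls hold after the GC and length correction was not examined. After Lin28a loss with Trim71 intact, 7 were higher and 7 lower (median 0.01), where 42.4% of all tested genes were called. The maternal factor Dppa3 rose by 0.86 and the enhancer-binding Aff3 by 0.78, and the de novo methylation cofactor Dnmt3l fell by 0.71. Zfp57, which binds methylated imprinted regions, rose after Trim71 loss in Lin28a-null cells (0.27, limma adjusted p = 0.00248). Of 12 PRC2 genes, whose complex is known to act at this domain, Trim71 loss with Lin28a intact lowered 1 (Rbbp7, -0.17), and 1 was higher and 6 lower after Lin28a loss (median -0.18, with 42.4% of all tested genes called and 22.0% called lower), led by Aebp2 (-0.47), Rbbp7 (-0.38) and Jarid2 (-0.36).

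The pathways in which the proteins of the domain act were counted in the same way. Over all tested genes 11.2% were called after Trim71 loss with Lin28a intact and 42.4% after Lin28a loss with Trim71 intact. For Dio3, 6 thyroid hormone genes were tested: 1 was higher (the transporter Slco4a1, 0.63) and 1 lower (the hormone-binding Crym, -0.51) after Trim71 loss with Lin28a intact, and 3 were higher and 0 lower after Lin28a loss with Trim71 intact, among them Crym (0.57). For Dlk1, 12 Notch pathway genes were tested: after Trim71 loss the ligand Dll1 fell by 0.44 and the target Hes1 rose by 0.33, and after Lin28a loss 8 were higher and 1 lower (median 0.25, with 42.4% of all tested genes called and 20.3% called higher), led by the receptors Notch4 (1.03) and Notch1 (0.48) and the ligand Dll3 (0.40). For Rtl1, 5 genes of its retrotransposon-derived family were tested, of which 0 were called after Trim71 loss (limma) and 3 were lower after Lin28a loss (Peg10, Rtl8b at -0.33 and Ldoc1 at -0.32).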

How the data were processed

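Per the labels' protocols, libraries were made with the TruSeq RNA v2 kit and sequenced in pairs on a HiSeq1500. The submitters' processing notes name CASAVA 1.8, STAR and DESeq2. The genome build, annotation and transformation are not given in the sources used here. The deposited values were read as log2 (base inferred from the values) with harvest day effects already removed: the largest remaining day term was 1.7e-08. They are not counts, so depth is unknown, and folds are folds of the deposited values. 1 library that equalled its group's mean (largest gap 1.5e-08) was left out. Genes at or above the log2 of 10 units in at least 4 of 18 libraries were tested (14988, 69.1%). limma 3.58.1 in R 4.3.3 fitted genotype and day with a variance trend, and a Benjamini-Hochberg adjusted p under 0.05 over all tested genes was called. Day pairs the libraries, since the labels give it, and is in the model. The labels do not say that replicates came from separate cultures, so p-values measure the spread between these libraries. On simulated data (3 draws, 200 of 14988 genes moved by 1 log2 unit after Trim71 loss with Lin28a intact), 99.5% were recovered with 5.24% false calls. Most differences of the members were smaller than 1 log2 unit, and the recovery of smaller differences was not simulated. Named genes were the 6 members, up to 3 called genes per list and the 5 genes most like Rian and Dio3. Where more genes of a list are named, they were chosen after their values were seen. Members and lists were chosen with earlier results of these data known. Alternatives were scalings, filters, variance models, a GC and length correction (98.2% of tested genes have a value), subsets of libraries and each library left out. Gene by gene they were examined for the members only, not for the other named genes.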

Additional observations from a re-analysis of the deposited data

Results flagged for a closer look

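Dio3 in KO-KO replicate 4 (clone C1, day 4) was 3.68, far below the other 4 KO-KO libraries, the nearest of which was at 3.95. Its value was near those of the 5 WT-KO libraries, which reached 3.63. The same library read 4.84 for Meg3 and 4.79 for Rian, within the range of its group. Chance puts about 1 in 20 groups past this criterion, and 1 group of a member was.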

How the results depend on the processing

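The calls of Meg3 and Rian after loss of both genes, and after that of Lin28a with Trim71 intact, held under every alternative run, and those of Rian and Meg3 after Trim71 loss with Lin28a intact held with any 1 library left out. Depth is unknown, and the low level of Dlk1, Dio3, Mirg and Rtl1 limits what can be seen. Called members after Trim71 loss with Lin28a intact numbered 2, but 1 after the GC and length correction, 0 in clones E3 and C1 alone, in clones 1 and 1-4 alone and with only the 2 genotypes compared (fits that called 0.0667%, 2.30% and 0.200% of all tested genes, with Meg3 at -0.78 to -0.60), and 3 with no filter on low values, which adds Mirg. After Trim71 loss in Lin28a-null cells 1 was called, but 2 with no replicate block (no day term) and 0 with a floor of 50 units (Dio3 and Dlk1 not tested), in either clone set alone and on the 3 days with all 4 genotypes. After Lin28a loss with Trim71 intact 4 were called, but 2 with a floor of 50 units, in either clone set alone and on the 3 days, 3 with the 75th percentile or median scaling and 5 with no filter. After loss of both 3 were called, but 2 with a floor of 50 units, with either scaling and in either clone set alone, and 4 with no filter. After Lin28a loss in Trim71-null cells 1 was called, but 3 with no replicate block, 3 with the GC correction, 2 with no variance trend, 0 in clones 1 and 1-4 alone and 2 on the 3 days. For the interaction 0 were called, but 2 with no replicate block. The cause was not tested, except that the subsets hold fewer libraries. With each library left out in turn, these counts were 2 to 2, 0 to 1, 3 to 4, 2 to 3, 1 to 3 and 0 to 0. Over all tested genes, leaving out the replicate block moved the calls after Trim71 loss with Lin28a intact from 1674 to 4219, in Lin28a-null cells from 1256 to 2618 and for the interaction from 3 to 673, and in simulated data the false calls rose to 36.0%.

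Signs turned only for values of Dlk1 and Dio3 that were not called. Dlk1 after Trim71 loss with Lin28a intact read 0.00715 with the 75th percentile scaling, 0.00298 with median scaling, 0.0502 in clones 1 and 1-4 alone and 0.0401 on the 3 days and with the 2 genotypes, and Dio3 read -0.0166 with the GC correction. Dlk1 after Trim71 loss in Lin28a-null cells read -0.0104 with the GC correction, -0.0135 in clones 1 and 1-4 alone and -0.0782 on the 3 days. Dio3 read 0.0534 with the GC correction after Lin28a loss in Trim71-null cells, and after loss of both -0.0126 in clones E3 and C1 alone and -0.00258 on the 3 days. The interaction of Dlk1 read -0.0637 in clones 1 and 1-4 alone and -0.118 on the 3 days. With 1 library left out, Dlk1 ran from -0.0678 to 0.0547 after Trim71 loss with Lin28a intact, from -0.0364 to 0.0576 in Lin28a-null cells and from -0.0481 to 0.0790 for the interaction, and Dio3 from -0.0943 to 0.0532 after Lin28a loss in Trim71-null cells. Leaving out any WT-WT library, or WT-KO replicate 1 or 4, ended the call of Dlk1 after Lin28a loss with Trim71 intact (differences from -0.28 to -0.19 over all libraries left out). After Lin28a loss in Trim71-null cells Dlk1 was called without WT-KO replicate 1 or 4, KO-KO replicate 1 or 2 or KO-WT replicate 1 (limma adjusted p = 0.0122 to 0.0494). The gap between clone sets could not be fitted without KO-WT replicate 4.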
